A study of Mus musculus with 6 samples.

Results

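The genes described here mark B lymphocytes and plasma cells without being immunoglobulin genes themselves. They are Cd79a, Cd79b, Ms4a1, Pax5, Cd22, Cr2, Jchain, Mzb1 and Pou2af1, taken from the deposited tables by their gene names, and all 9 were found among the 55039 genes listed. They were followed in epididymal white adipose tissue (eWAT), the visceral fat pad beside the epididymis, of male C57BL/6 mice that were 6 to 7 weeks old when they were assigned to a group. The 3 mice with cancer-associated cachexia (CAC) carried a subcutaneous tumor of Lewis lung carcinoma (LLC) cells, a transplantable mouse lung cancer line, placed in the lower back. The 3 control mice (CONT) received PBS in its place. Tissue was taken 28 days after the injection, and 1 poly(A) mRNA library was made per mouse. The tumor is a graft of cultured cells in young mice, and whole fat was sequenced rather than sorted cells.

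B cells recognize antigen through a surface immunoglobulin that signals through the CD79A and CD79B chains. CD20 (Ms4a1), CD22 and complement receptor 2 (Cr2) sit beside it in the membrane, and Pax5 is the transcription factor that holds the B cell program in place. When a B cell becomes a plasma cell it turns to secretion: the J chain links IgM and IgA into polymers, and MZB1 assists immunoglobulin folding in the endoplasmic reticulum. POU2AF1 is the coactivator of the octamer factors that drive immunoglobulin genes. White fat of the abdominal cavity is known to hold B cells, including innate-like B-1 cells that make IgM, partly in small lymphoid clusters.

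The libraries held 15713794 to 25926425 counts, so that 1 CPM (counts per 1e6 of the TMM-adjusted library size) stood for 11.3 reads in the shallowest library and 26.7 in the deepest. Several libraries stood apart. CONT replicate 1 drew 30.2% of its counts from the mitochondrial genome, against 3.89% to 5.04% in the other 5, and its level of Ptprc, the CD45 gene of all leukocytes, was the lowest at 17.3 CPM. CONT replicate 2 and CAC replicate 3 held 7321 and 13728 reads of the sperm protamine Prm2, against at most 116 in any other library. CONT replicate 3 held 118445 reads of Gpx5, an epididymal gene, against at most 9 elsewhere. The epididymal gene Lcn5 held 786 and 207 reads in CONT replicates 1 and 3 and 0 in the others. Crisp1, also epididymal, held 767, 5 and 1052 reads in CONT and 0 in every CAC library. Blood genes (5 measured, led by the hemoglobin gene Hba-a1) summed to 4550, 252 and 390.4 CPM in CONT and 2285, 1903 and 3054 CPM in CAC. These sums include the neutrophil genes S100a8 and S100a9, at 488 and 457 CPM in CAC replicate 3 and 0.796 and 1.33 CPM in CONT replicate 1. The part of these differences in the results below was not tested beyond leaving the libraries out. No fit left out CONT replicates 1 and 3 together.

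Of the 9 genes, 8 had a log2 fold change below 0 (CAC over CONT), as had 54.1% of the 17296 genes tested, and 1 of the 8, Pax5, rested on a single library. The median was -1.26 over the 9 and -0.06 over all genes tested. The edgeR quasi-likelihood test placed 0 of the 9 past an adjusted p of 0.05, and it placed 0 of all genes tested (0%) there. At an unadjusted p under 0.05, 3 of the 9 were lower (Jchain, Mzb1 and Cd79b), while 6.95% of all genes tested were lower at that level, 6.31% higher and 13.3% either. In 6 of the 9 every CAC library lay below every CONT library, which was the case in 10.7% of all genes tested, while 0 of the 9 lay wholly above, against 11.8% of all genes. DESeq2, the tool of the study, gave an adjusted p for 16019 genes, among them 8 of the 9 (all but Cr2). It called Jchain and Mzb1 at an adjusted p under 0.05, against 2.55% of those genes called lower in CAC and 5.80% called in either direction. In total the 9 genes held 54.2, 98.4 and 55.9 CPM in the CONT libraries and 19.7, 21.4 and 10.4 CPM in the CAC libraries. These sums did not overlap, and their means were 69.5 ± 25.0 CPM (SD, n = 3) and 17.1 ± 5.93 CPM. Jchain made up 27.9% to 73.3% of the reads behind them, and without it the sums were 39.1, 26.2 and 18.0 CPM in CONT and 9.77, 12.2 and 6.55 CPM in CAC. CONT replicate 1 was then the highest control, with 19.5 of its 39.1 CPM from Pax5, and the groups still did not overlap. In whole tissue, fewer B lineage cells and less of these RNAs per cell cannot be told apart. Differences below are log2 fold changes (CAC over CONT) ± standard error from edgeR unless another tool is named, with p-values of the quasi-likelihood test, adjusted over all genes tested.

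**Figure D1:**
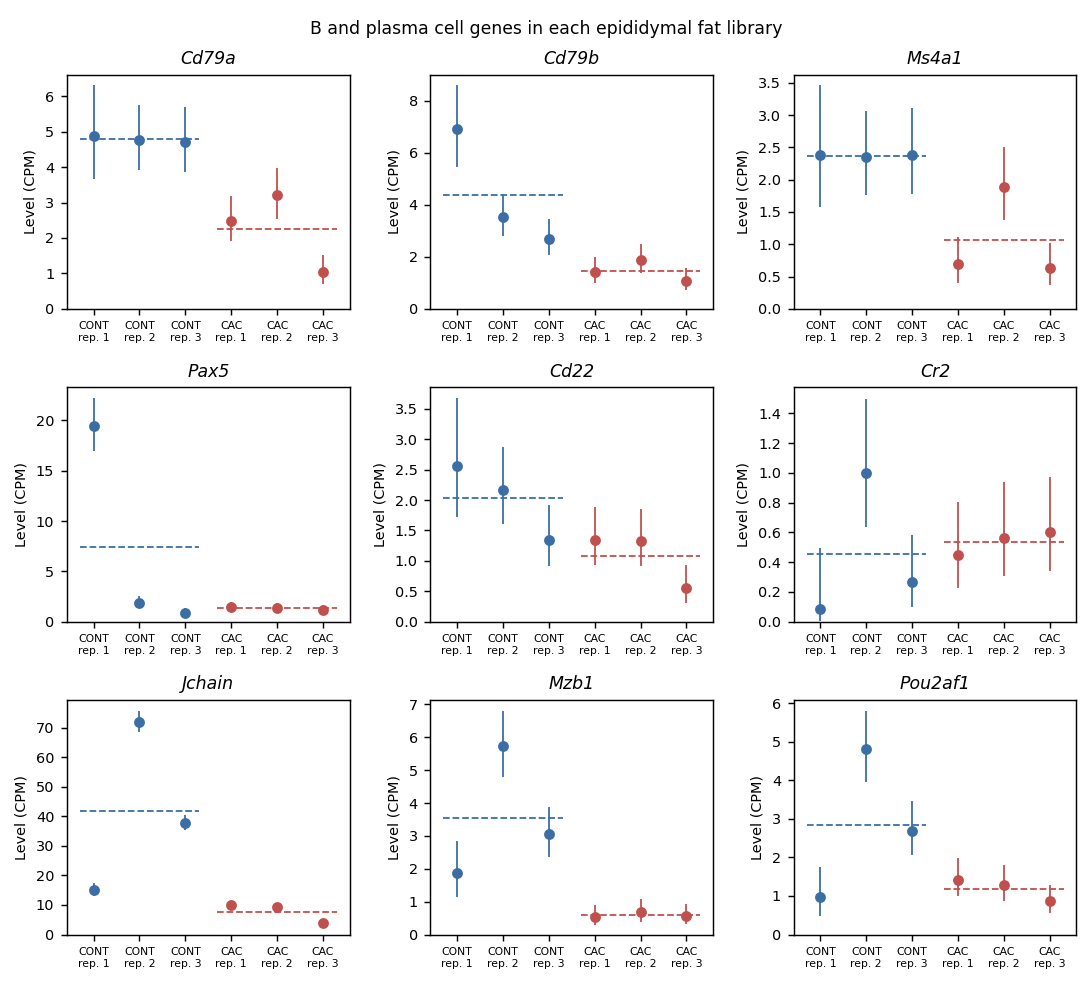
Level of each of the 9 genes (CPM, linear axis from 0) in the 3 CONT (blue) and 3 CAC (red) libraries. Points are single mice, vertical bars are exact Poisson 95% intervals for counting error, and dashed lines are group means. The CONT points of Cd79a and Ms4a1 lie within each other's bars, the CONT points of Jchain, Mzb1 and Pou2af1 are widely spread, and Pax5 is high in CONT replicate 1 alone.

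Levels can be ranked between genes on the FPKM scale, which divides by gene length. In CONT, Jchain was the most abundant at 13.4 ± 9.13 FPKM (SD, n = 3), and Mzb1 (3.17 ± 1.75), Cd79a (2.66 ± 0.0615) and Cd79b (2.48 ± 1.29) formed the next step without differing beyond their spread. Pou2af1 (0.896 ± 0.606) and Pax5 (0.682 ± 0.968) came next and overlapped, but Pax5 owed its place to CONT replicate 1 (1.80 FPKM) and stood at 0.170 and 0.0779 FPKM in the other CONT libraries, below Cd22 and Ms4a1 there. Cd22 and Ms4a1 stood at 0.326 ± 0.102 and 0.311 ± 0.00538 FPKM, and Cr2 was last at 0.0450 ± 0.0477 FPKM. In CAC, Jchain was still first at 2.50 ± 1.10 FPKM, while Mzb1, at 0.537 ± 0.0688, lay below the means of Cd79a (1.27 ± 0.617) and Cd79b (0.842 ± 0.227).

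Both signaling chains of the B cell receptor were lower in every CAC library than in any CONT library. Cd79a is ENSMUSG00000003379 (GRCm38 chromosome 7, 24897381 to 24902197, plus strand), and Cd79b is ENSMUSG00000040592 (chromosome 11, 106311341 to 106314762, minus strand). Cd79a measured 4.86, 4.78 and 4.71 CPM in CONT and 2.48, 3.20 and 1.05 CPM in CAC. The control values lay closer together than their counting error (on 55 to 110 reads), and CAC replicate 3 was lowest. The difference was -1.09 ± 0.49, or 2.13-fold (unadjusted p = 0.0654, adjusted p = 0.404). Cd79b measured 6.90, 3.52 and 2.69 CPM in CONT and 1.43, 1.88 and 1.09 CPM in CAC. Its groups did not overlap either, and here CONT replicate 1 stood highest. Cd79b differed by -1.57 ± 0.52 (unadjusted p = 0.0205, adjusted p = 0.305), and by -1.07 without CONT replicate 1. Reads of the pair came in a ratio of 0.705 Cd79a to 1 Cd79b in CONT replicate 1, against 1.36 and 1.75 in the other CONT libraries and 0.966 to 1.74 in CAC. For single genes, an exact two-sided permutation test of 3 against 3 libraries cannot go below p = 0.1, the value reached by both.

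The sequence around the transcription starts was examined for letters that B cell factors are known to read. RefSeq promoters (GRCm38.p6, from 250 bases before to 50 bases after the start, 300 bases each) were given for 6 of the 9 genes, namely Cd79a, Pax5, Cd22, Cr2, Jchain and Pou2af1. The others, Cd79b, Ms4a1 and Mzb1, are named only. Both strands were searched for the octamer ATGCAAAT, the EBF1 palindrome (TCCC and GGGA parted by 2 bases), the PU.1 letters GAGGAAGT and the E2A E-box CAGGTG, none of which overlapped another in these windows. The E-box was found in 4 of the 6 promoters (Cd79a, Cd22, Cr2 and Jchain) and in 20.2% of all 32851 promoters. The EBF1 palindrome was found in Cd22 alone of the 6 and in 0.904% of all promoters. The octamer and the PU.1 letters were in 0 of these 6 windows, and in 1.74% and 3.20% of all promoters. The promoters of 3 genes are printed 5′ to 3′ along the gene, as examples of a receptor chain, a membrane coreceptor and a secretory gene. Capitals mark the E-box or its reverse complement CACCTG, and in Cd22 also the palindrome.
Cd79a, chr7:24897247-24897546, plus strand: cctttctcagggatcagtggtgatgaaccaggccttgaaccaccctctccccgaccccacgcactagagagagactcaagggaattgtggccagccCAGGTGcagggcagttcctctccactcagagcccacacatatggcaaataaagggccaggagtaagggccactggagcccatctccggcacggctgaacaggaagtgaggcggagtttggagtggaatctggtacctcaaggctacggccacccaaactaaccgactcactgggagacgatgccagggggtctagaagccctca
Cd22, chr7:30878979-30879278, minus strand: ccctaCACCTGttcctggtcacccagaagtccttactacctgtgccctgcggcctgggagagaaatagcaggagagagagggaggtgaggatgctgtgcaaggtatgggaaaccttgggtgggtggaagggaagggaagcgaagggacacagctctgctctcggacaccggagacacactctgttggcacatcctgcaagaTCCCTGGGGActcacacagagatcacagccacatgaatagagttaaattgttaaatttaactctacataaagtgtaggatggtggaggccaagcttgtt
Jchain, chr5:88527848-88528147, minus strand: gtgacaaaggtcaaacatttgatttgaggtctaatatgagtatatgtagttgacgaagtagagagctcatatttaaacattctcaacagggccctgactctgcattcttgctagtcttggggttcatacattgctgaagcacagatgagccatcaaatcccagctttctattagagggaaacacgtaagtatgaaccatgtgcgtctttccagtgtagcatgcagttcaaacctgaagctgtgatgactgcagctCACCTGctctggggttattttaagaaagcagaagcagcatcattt
Counted from the start site, the match begins at position -154 in Cd79a, at -245 (E-box) and -49 (palindrome) in Cd22, and at position 6 in Jchain. The RefSeq starts of Cd79a and Cd22 lie inside the gene spans that the deposited tables give. These are matches of letters, not measured binding.

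The other membrane genes were low, and they behaved unequally. Ms4a1 (ENSMUSG00000024673, chromosome 19, 11249675 to 11266241, minus strand), which encodes CD20, measured 2.39, 2.35 and 2.38 CPM in CONT and 0.692, 1.88 and 0.637 CPM in CAC. The control values again lay closer together than their counting error, on 27 to 54 reads, and CAC replicate 2 came near them. Ms4a1 differed by -1.14 ± 0.55 (unadjusted p = 0.0797, adjusted p = 0.422). With 1 library left out it ran from -1.81 without CAC replicate 2 to -0.86 without CAC replicate 1. Only 17 reads stood behind the level of CAC replicate 1, whose exact Poisson 95% interval ran from 0.403 to 1.11 CPM.

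Cd22 (ENSMUSG00000030577, chromosome 7, 30865402 to 30880342, minus strand), an inhibitory coreceptor that binds sialic acid, measured 2.57, 2.17 and 1.35 CPM in CONT and 1.34, 1.32 and 0.562 CPM in CAC. The groups touched, since the lowest CONT library exceeded the highest CAC library by less than the counting error of either. The difference in Cd22 was -0.91 ± 0.53 (adjusted p = 0.487). Cr2 (ENSMUSG00000026616, chromosome 1, 195136811 to 195176716, minus strand), the receptor of complement C3d on B cells and follicular dendritic cells, was the only one of the 9 not lower in CAC. It held 1, 23 and 6 reads in CONT and 11, 14 and 16 in CAC, or 0.0884, 0.999 and 0.269 CPM against 0.448, 0.560 and 0.599 CPM. The CAC libraries lay inside the CONT range. Cr2 differed by 0.18 ± 0.80 (adjusted p = 0.946), and the value ran from -0.22 without CONT replicate 1 to 1.47 without CONT replicate 2. With so few reads and with controls this far apart, no difference in Cr2 was detected in either direction.

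Pax5 (ENSMUSG00000014030, chromosome 4, 44524757 to 44710487, minus strand) rested on 1 library. It measured 19.5, 1.87 and 0.852 CPM in CONT and 1.43, 1.36 and 1.20 CPM in CAC. CONT replicate 1, with 220 reads, lay far above all other libraries, and the remaining CONT libraries lay on either side of the CAC range. Pax5 differed by -2.46 ± 1.15 (unadjusted p = 0.0718, adjusted p = 0.414) with all 6 libraries and by -0.01 ± 0.51 without CONT replicate 1 (unadjusted p = 0.980, adjusted p = 0.998). Cd79b was also highest in CONT replicate 1, whereas Cd79a and Ms4a1 differed between the 3 controls by less than their counting error in CPM. Pax5 overlaps the antisense gene Gm12462, which held 110 reads in CONT replicate 2 and 80 in CAC replicate 3, the libraries with protamine reads, and at most 1 elsewhere. Whether counting used the strand is not stated, so the 43 and 32 Pax5 reads of those libraries are uncertain. In CONT replicate 1, Gm12462 held 0 reads.

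Of the 9 genes, Mzb1 and Jchain had the smallest unadjusted p, and both belong to the secretory machinery. Jchain (ENSMUSG00000067149, chromosome 5, 88519809 to 88527891, minus strand) measured 15.1, 72.1 and 37.9 CPM in CONT and 9.90, 9.21 and 3.82 CPM in CAC. Every CAC library lay below every CONT library, and the controls themselves differed several-fold, with replicate 1 lowest. Jchain differed by -2.45 ± 0.64, or 5.46-fold (unadjusted p = 0.00711, adjusted p = 0.261), and DESeq2 gave an adjusted p of 0.00401. Mzb1 (ENSMUSG00000024353) measured 1.86, 5.73 and 3.05 CPM in CONT and 0.529, 0.681 and 0.562 CPM in CAC. The CAC mice were close together here, on 13, 17 and 15 reads, and all were well under the lowest control. Mzb1 differed by -2.58 ± 0.56, or 5.98-fold (unadjusted p = 0.00272, adjusted p = 0.228), and DESeq2 gave an adjusted p of 0.00183. By unadjusted p Mzb1 stood at position 197 of the 17296 genes and Jchain at 470. Both calls by DESeq2 were lost without CONT replicate 2, the library with the most Jchain, Mzb1 and Pou2af1. Without both libraries with protamine reads, Jchain differed by -1.48 and Mzb1 by -2.02 in edgeR.

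Pou2af1 (ENSMUSG00000032053, chromosome 9, 51213708 to 51240080, plus strand) measured 0.973, 4.82 and 2.69 CPM in CONT and 1.43, 1.28 and 0.861 CPM in CAC. It kept the order of the controls seen in Jchain and Mzb1, and CONT replicate 1, on 11 reads, lay within the CAC range. The difference in Pou2af1 was -1.26 ± 0.64 (adjusted p = 0.439). It was -1.64 without CONT replicate 1, -0.63 without CONT replicate 2 and -0.45 without both libraries with protamine reads.

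**Figure D2:**
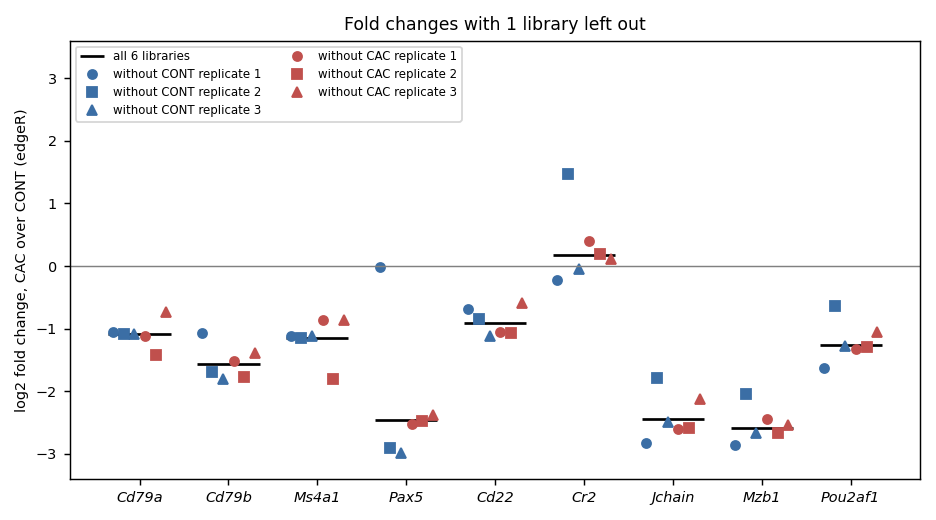
Log2 fold change (CAC over CONT, edgeR) of each of the 9 genes with all 6 libraries (black lines) and with each library left out in turn (blue, a CONT library left out; red, a CAC library left out). Pax5 moves from -2.46 to -0.01 without CONT replicate 1 and Cr2 crosses 0, while the other 7 genes stay below 0 throughout.

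With 1 library left out in turn, Jchain ran from -2.83 (without CONT replicate 1) to -1.79 (without CONT replicate 2) on the log2 scale and Mzb1 from -2.86 to -2.05, in the same settings. Both had an unadjusted p under 0.05 in all 6 of these edgeR fits, and neither had an adjusted p under 0.05, with 0.211 as the lowest for Mzb1 and 0.224 for Jchain. Cd79b had an unadjusted p under 0.05 in 3 of the 6 fits. Cd79a ran from -1.42 to -0.74 and Cd22 from -1.12 to -0.59, with an unadjusted p under 0.05 in 0 of the 6.

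Ratios of reads within a library do not depend on its total. CONT replicates 2 and 3 held 15.1 and 8.05 Jchain reads for each Cd79a read, and the CAC libraries held 3.98, 2.88 and 3.64. CONT replicate 1, at 3.11, lay within the CAC range, so the groups overlapped in this balance of a secretory and a membrane gene. Mzb1 per Cd79a overlapped likewise, at 0.382, 1.20 and 0.648 in CONT and 0.213, 0.213 and 0.536 in CAC.

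Set against Ptprc, which measured 17.3, 75.6 and 56.1 CPM in CONT and 54.9, 39.0 and 61.5 CPM in CAC (difference 0.06 ± 0.51, adjusted p = 0.975 by edgeR), Jchain, Mzb1 and Pou2af1 kept apart. Jchain held 87.2, 95.4 and 67.6 reads per 100 Ptprc reads in CONT and 18.0, 23.6 and 6.21 in CAC. The 3 controls were closer to each other on this scale than in CPM. Mzb1 held 10.7, 7.58 and 5.44 reads per 100 Ptprc reads in CONT and 0.965, 1.74 and 0.913 in CAC. Pou2af1 held 5.61, 6.38 and 4.80 against 2.60, 3.28 and 1.40, without overlap here although it overlapped in CPM. These 3 of the 9 genes had every CAC library below every CONT library relative to Ptprc, beside 5.48% of all genes tested. Cd79a, at 28.1, 6.32 and 8.39 reads per 100 Ptprc reads in CONT and 4.53, 8.21 and 1.70 in CAC, overlapped, as did Cd79b, Ms4a1, Pax5, Cd22 and Cr2, with or without CONT replicate 1. This scale was added after the libraries had been compared.

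**Figure D3:**
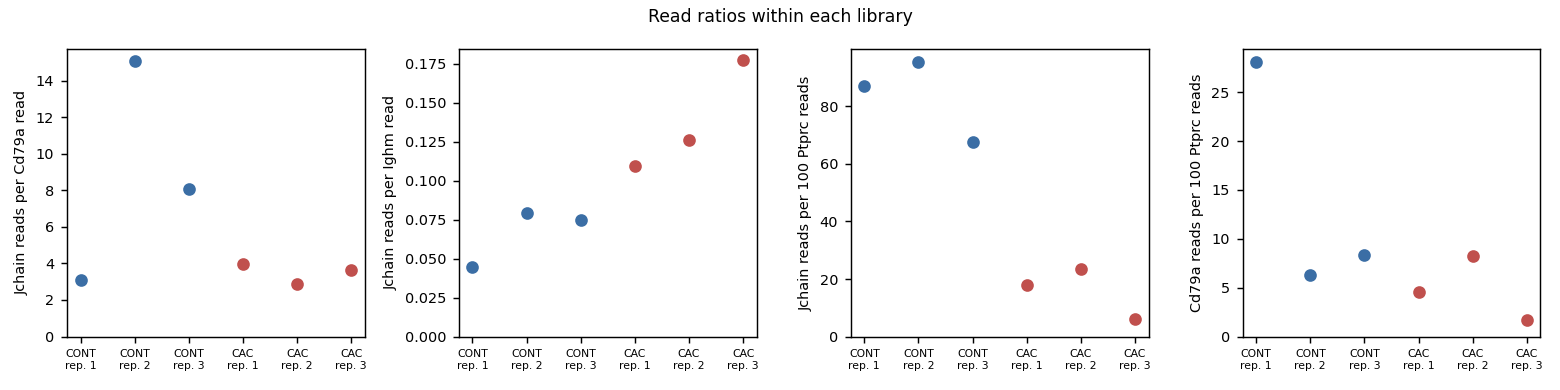
Reads of Jchain per read of Cd79a, reads of Jchain per read of the IgM heavy chain gene Ighm, and reads of Jchain and of Cd79a per 100 reads of Ptprc in each library (linear axes from 0; blue CONT, red CAC; 1 point per mouse). Jchain per Ptprc separates the groups, Cd79a per Ptprc does not, and Jchain per Ighm is higher in all CAC libraries.

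The immunoglobulin constant genes had the lowest median of the gene lists compared here. Ighm, the IgM heavy chain, measured 341, 911 and 506 CPM in CONT and 90.7, 73.1 and 21.5 CPM in CAC (difference -3.25 ± 0.65, adjusted p = 0.224 by edgeR and 6.48e-06 by DESeq2). The kappa constant gene Igkc measured 22.1, 417 and 199 CPM against 20.9, 27.0 and 13.6 CPM, so that CONT replicate 1 lay within the CAC range. Summed over 429 immunoglobulin genes and segments, the level was 402 to 1898 CPM in CONT and 62.6 to 169.5 CPM in CAC. Of 11 constant region genes tested, all 11 had a log2 fold change below 0, with a median of -3.24, 7 had an unadjusted p under 0.05, 0 had an adjusted p under 0.05 by edgeR, and DESeq2 called 6 lower. Those with at least 100 reads in any library were Ighm, Igkc, Igha, Ighg1, Ighg2b, Ighg3, Iglc1 and Iglc2. Of the 11, Igha, the IgA heavy chain, had the difference nearest to 0, with means of 10.6 ± 5.07 (CONT) and 6.74 ± 2.51 CPM (CAC; SD, n = 3). Relative to Ighm, Jchain was higher in CAC: reads of Jchain per read of Ighm were 0.0443, 0.0792 and 0.0749 in CONT and 0.109, 0.126 and 0.177 in CAC, without overlap. Relative to Igkc the groups overlapped, at 0.684, 0.173 and 0.190 Jchain reads per read in CONT and 0.475, 0.341 and 0.280 in CAC.

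Of 29 other B lineage genes, 23 were tested, 22 of them had a log2 fold change below 0, and the median was -0.94. None of the 23 had an adjusted p under 0.05 by edgeR, 9 had an unadjusted p under 0.05 and all 9 were lower in CAC, and 11 had groups that did not overlap. DESeq2 called 4 of them lower, namely Pou2f2, Cd40, Ly86 and Bank1. Pou2f2, the octamer factor OCT2 that works with POU2AF1, measured 11.0, 21.1 and 18.0 CPM in CONT and 3.26, 3.28 and 5.13 CPM in CAC. It differed by -2.10 ± 0.37 (unadjusted p = 0.000905, adjusted p = 0.215), the smallest unadjusted p of the list. Cd40, the receptor for T cell help, measured 6.72, 5.69 and 4.21 CPM in CONT and 1.67, 1.84 and 1.91 CPM in CAC (difference -1.61 ± 0.38). Ly86, also called MD-1, differed by -1.16 ± 0.30, and Bank1, an adaptor of receptor signaling, by -1.35 ± 0.43. Pou2f2, Cd40 and Ly86 are also expressed by myeloid cells. Ebf1 and Bcl6 were the most abundant of the list and are not confined to B cells. Ebf1, also an adipocyte factor, differed by -0.58 ± 0.30 and measured 183.5 CPM in CONT replicate 1. Bcl6 measured 88.3 CPM in CONT replicate 1 and 13.9 to 25.2 CPM in the other libraries.

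**Figure D4:**
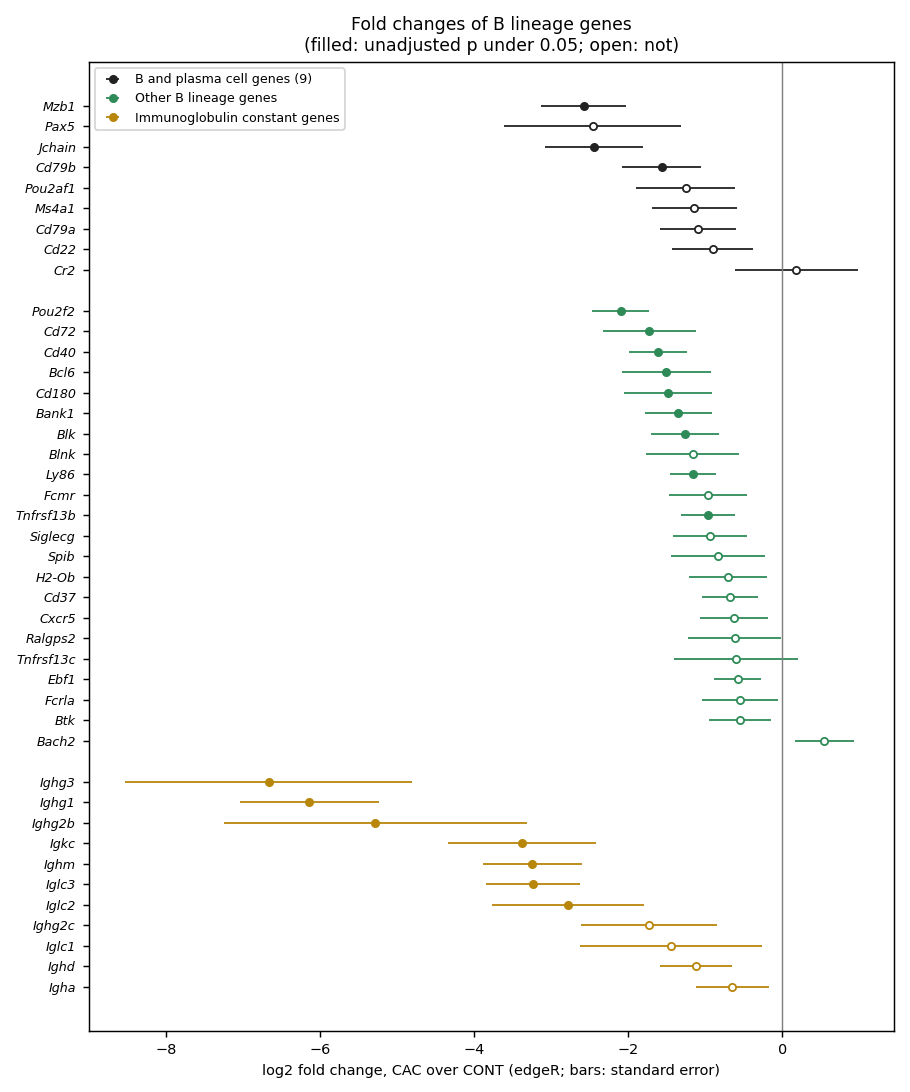
Log2 fold change (CAC over CONT) with its standard error from edgeR for the 9 genes (black), 22 of the other B lineage genes tested (green) and the immunoglobulin constant genes tested (ochre). Filled points have an unadjusted p under 0.05, and no gene drawn has an adjusted p under 0.05. All points but Cr2 and Bach2 lie below 0.

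In a list of general plasma cell genes, 8 of 9 were tested, the median log2 fold change was -0.26, 0 had an unadjusted p under 0.05 and were lower, and 2 had one and were higher. The 2 were Irf4, at 5.93, 13.2 and 13.8 CPM in CONT and 54.9, 1032 and 193 CPM in CAC, and Xbp1, at 122, 200 and 259 CPM against 313, 440 and 818 CPM. Both transcription factors are needed by plasma cells and both are also made by adipocytes. Their adjusted p was 0.228 and 0.291 by edgeR, while DESeq2 called both higher. Tnfrsf17 (BCMA), a receptor of plasma cells held in both lists, was too low to be tested and held 6, 29 and 17 reads in CONT and 5, 5 and 0 in CAC. Derl3 was highest at 26.9 CPM in CONT replicate 3, the library with the Gpx5 reads, and lay between 0.815 and 3.52 CPM in the others. Of 5 genes tested that are associated with B-1 cells, Bhlhe41 alone had an unadjusted p under 0.05 (-1.78 ± 0.46, adjusted p = 0.260 by edgeR and 0.00977 by DESeq2). Bhlhe41 measured 15.4, 31.1 and 49.1 CPM in CONT, while Cd5 held at most 0.937 CPM in any library. The genes of this list are not confined to B-1 cells, and which cells Bhlhe41 came from was not tested.

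Markers of other cell types moved unequally with the 9 genes, and their part in the results was not tested. Of 14 T cell genes tested, 2 were lower at an unadjusted p under 0.05 (Cd247 and Lat), 11 had a log2 fold change below 0, the median was -0.53, and the summed level of the 14 was 27.9 to 42.7 CPM in CONT and 21.1 to 25.2 CPM in CAC, without overlap. Of the CD3 chains, Cd3d and Cd3g were among the 11 below 0 and Cd3e was not. Macrophage genes overlapped between the groups in all 8 cases, with sums of 686 to 1948 CPM in CONT and 776 to 1334 CPM in CAC, and CONT replicate 1 was the lowest of all. All 8 had a log2 fold change below 0, with a median of -0.63, and C1qa alone was lower at an unadjusted p under 0.05. Of 4 genes tested for plasmacytoid dendritic cells, which share some B cell genes, 3 were lower at an unadjusted p under 0.05 (Bst2, Siglech and Irf7). All 4 had a log2 fold change below 0 with a median of -1.47, beyond that of the 9 genes. The list summed to 120 to 347 CPM in CONT and 87.4 to 118 CPM in CAC. Most of this came from Bst2 and Irf7, which are not confined to these cells. Bst2 measured 52.7 to 216 CPM in CONT and 35.9 to 48.55 CPM in CAC, and Irf7 34.7 to 159 and 24.0 to 47.3 CPM. Siglech measured 4.95, 1.91 and 2.29 CPM against 0.896, 1.56 and 0.749 CPM. The neutrophil gene S100a8 was higher in every CAC library, at 0.796, 12.5 and 17.8 CPM in CONT and 48.1, 87.7 and 488 CPM in CAC, and so was its partner S100a9 (differences 4.31 ± 1.30 and 4.09 ± 1.17, adjusted p = 0.284 and 0.275 by edgeR). DESeq2 called both higher, with adjusted p of 0.00162 and 0.000998. Neutrophils also express Ptprc, against which the 9 genes were set above.

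Of 11 genes of lymph node and lymphoid cluster stroma, 6 were tested, and the list summed to 31.4 to 129.6 CPM in CONT and 20.3 to 31.9 CPM in CAC. Defining markers at or near 0 were Glycam1, a product of lymph node venules, with at most 1 read, and Ccl19 with at most 1. Madcam1 held 1, 3 and 2 reads in CONT and 5, 8 and 19 in CAC. Chst4, a sulfotransferase of lymph node venules, had the smallest unadjusted p of the list and was higher in every CAC library, at 1.06, 1.65 and 1.30 CPM in CONT and 3.63, 3.76 and 3.03 CPM in CAC (difference 1.37 ± 0.40, unadjusted p = 0.0121, adjusted p = 0.277 by edgeR, and adjusted p = 0.0272 by DESeq2). Ccl21a, which has near-identical copies and is uncertain, reached 322 reads in CONT replicate 2 and 6 to 101 in the others. Cxcl13, the chemokine that draws B cells into lymphoid clusters, measured 9.46, 101 and 102 CPM in CONT and 2.53, 13.5 and 17.1 CPM in CAC. CONT replicate 1 lay within the CAC range, and Cxcl13 differed by -2.68 ± 1.01 (unadjusted p = 0.0346, adjusted p = 0.344 by edgeR, and adjusted p = 0.0475 by DESeq2). Tnfsf13b, the B cell survival factor BAFF, differed by -0.63 ± 0.45 (adjusted p = 0.560), and its groups overlapped. The defining adipocyte gene Adipoq measured 1678 to 3344 CPM over the 6 libraries, and adipocyte genes stood at 21020 to 50810 CPM summed over 8 genes in CONT and 34260 to 45250 CPM in CAC, which overlapped. Of these 8, the lipase gene Pnpla2 alone was higher in every CAC library, at 1704, 1301 and 1901 CPM in CONT and 4143, 3756 and 4687 CPM in CAC (unadjusted p = 0.00432, adjusted p = 0.238 by edgeR, and adjusted p = 5.31e-06 by DESeq2). Mesothelial genes, which cover the fat pad, summed to 168 to 198 CPM in CONT and 83.3 to 200.1 CPM in CAC.

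**Figure D5:**
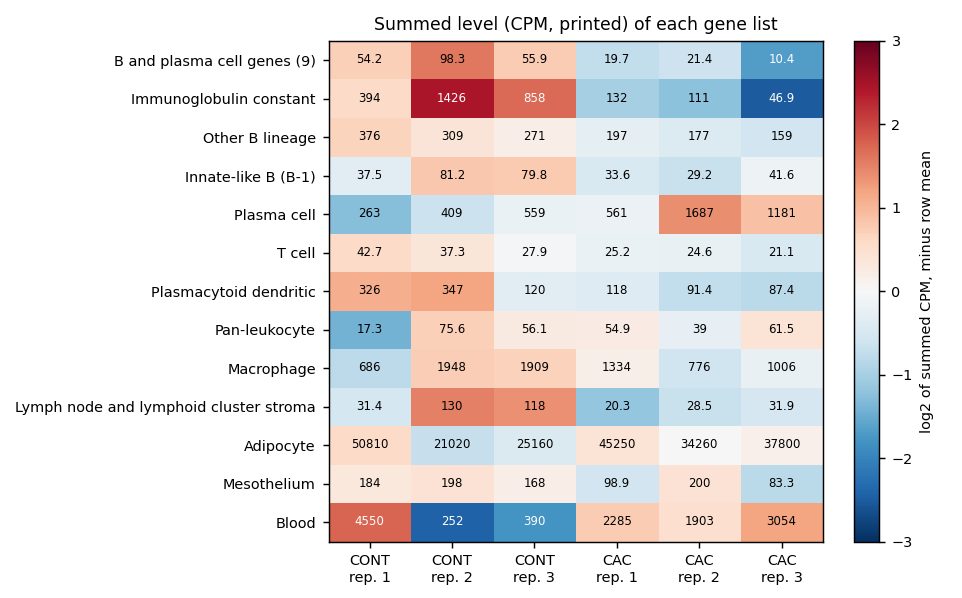
Summed level of each gene list in each library (CPM, printed in the cells), colored by its log2 value minus the mean of the row (red high, blue low). The rows of the 9 genes and of the immunoglobulin constant genes are red in CONT and blue in CAC, while the T cell, macrophage and leukocyte rows are weaker or divided within the groups.

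The genes with the profile most like the mean of the 9 were sought among all genes tested, by the root mean square difference between log2 CPM profiles over the 6 libraries after centring each on its mean. The nearest were Vstm5 (0.09), Gbp4 (0.12), C1qtnf2 (0.14), Ppfia4 (0.15) and Spats2l (0.16), none of which belongs to a B lineage list here. The mean profile stood at 0.54, 0.99 and 0.29 in CONT and -0.52, -0.26 and -1.03 in CAC. It includes Pax5, at 3.18 in CONT replicate 1, and Cr2, at -1.50 in the same library. Among the 9 genes themselves, Cd79a was closest to it, at 0.31, and Pax5 farthest, at 1.33.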

How the data were processed

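Poly(A) mRNA of eWAT from 3 CAC and 3 CONT mice was sequenced on an Illumina instrument. The authors cleaned the reads with in-house scripts, aligned them with HISAT2 2.0.5 (Ensembl release 94, GRCm38) and, per the submitters' processing notes, counted them per gene with featureCounts 1.5.0-p3. The strand setting is not given in the sources used here. The deposited counts are whole reads per gene without normalization. The deposited FPKM values scale these counts to gene length and to 1 total per library, which was 0.879 times the summed counts in CONT replicate 1 and 1.18 to 1.44 times in the others.

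Counts of the whole table were tested in R 4.3.3 with edgeR 4.0.16 (quasi-likelihood, robust, TMM, filter by expression within group, condition only), with Benjamini-Hochberg adjustment over all genes tested and a threshold of 0.05. All 9 genes passed the filter. DESeq2 1.42.0 and limma 3.58.1 (voom with sample quality weights, and log2 FPKM with pseudocounts of 1 and 0.1 over genes at 0.5 FPKM or more in 3 libraries) were alternatives, with other normalizations, filters and libraries left out. Standard errors are the fold change divided by the root of the F statistic. The count fits were tested on simulated data. Intervals of levels are exact Poisson 95% intervals and cover counting error only, as the reads carry no molecular identifiers. Permutation tests were exact and two-sided. The labels give no batch. No pair of libraries within a group agreed within sampling noise.

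The 9 genes and all gene lists were chosen with earlier results of these data known. The text names the 9 genes, in each list at most 4 genes of smallest unadjusted p and the 2 most abundant, constant region genes with at least 100 reads in a library, and the 5 nearest profiles. Named in addition, after their values were seen, were Bach2, Cd3d, Cd3e, Cd3g, Tnfrsf17, Glycam1, Ccl19, Madcam1, Ccl21a, Lcn5, Crisp1 and Gm12462. The values of 1 gene of the lists are not reported here.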

Additional observations from a re-analysis of the deposited data

How the results depend on the processing

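By edgeR 0 of the 9 genes and 0 of 102 genes of the other lists had an adjusted p under 0.05, and this held under every edgeR setting (normalization, filter, robustness, omitted gene classes, each library left out). DESeq2 called 2 and 19, and voom with sample quality weights 2 and 18. DESeq2 with each library left out, added after seeing the data, called 0 to 3 of the 9 (0 without CONT replicate 2) and 7 to 30 of the others (14 without CONT replicate 3 and without CAC replicate 2, 20 without CAC replicate 1, 9 without CAC replicate 3). Over all genes DESeq2 called 929 (of 16019 with an adjusted p) and voom 956 (of 17296), and the same DESeq2 fits with 1 library left out called 403 (without CONT replicate 2) to 1944 (without CONT replicate 1). The third gene was Pou2af1 without CONT replicate 1, Pax5 without CONT replicate 3 and Ms4a1 without CAC replicate 2. The median log2 fold change of -1.26 ran from -1.78 (without CAC replicate 2) to -1.06 (without CAC replicate 3) with 1 library left out by edgeR, was -1.80 in log2(FPKM + 0.1), where 4 of the 9 could be tested, was -1.80 in DESeq2 without CAC replicate 2, and was -0.98 in voom. Cr2 changed sign without CONT replicate 1 (-0.22, and -0.20 in DESeq2) and without CONT replicate 3 (-0.043, and -0.033 in DESeq2), and was 1.47 without CONT replicate 2. Pax5 was at 0.007 in DESeq2 without CONT replicate 1, at -0.09 in voom and at -1.16 with the replicate block. The cause was not tested. The count of genes without overlap was 6 in CPM, 5 in FPKM, under RLE and upper-quartile scaling and without mitochondrial genes, and 3 relative to Ptprc. Leaving out both libraries with protamine reads, also added later, left 8 of the 9 testable and 0 past the threshold, with Jchain at -1.48, Cd22 at -0.54 and Pou2af1 at -0.45.

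The replicate number as a block left 0 of the 9 and 1 gene in all past the threshold, with 3 of the 9 at an unadjusted p under 0.05. Same-numbered libraries correlated at 0.306, -0.151 and -0.218 in their deviations from the group means. CONT replicate 2 correlated best with CAC replicate 3 (0.473), and both hold protamine reads. Deviations of 3 libraries from their own mean are bound to each other, so these correlations cannot decide whether the numbers pair the mice. Depth limits Cr2 most, with 1 to 23 reads per library and 71 in all.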
